A study of Mus musculus with 6 samples.

Results

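The AP-1 transcription factors described here are 10 genes, *Fos*, *Fosb*, *Fosl1*, *Fosl2*, *Jun*, *Junb*, *Jund*, *Atf3*, *Batf3* and *Maff*, chosen by symbol from the 24972 rows of the expression table. All 10 were found. They were measured by RNA sequencing of total RNA from bone marrow-derived macrophages, primary cells that differentiate from mouse marrow monocytes when L929 cell supernatant supplies the growth factor CSF-1. The Lcn10-KO group had 3 libraries of untreated macrophages from Lcn10-knockout mice, and the WT group had 3 libraries of untreated macrophages from wild-type mice. *Lcn10* codes for a secreted carrier protein of the lipocalin family. The sources used here do not give the design of the knockout allele or the strain, sex and age of the mice, and they do not tie replicates to single animals. The p-values thus reflect how these libraries vary, and part of that variation may be technical.

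AP-1 is a dimer of basic leucine zipper (bZIP) proteins. Fos proteins cannot pair with each other and bind DNA with a Jun partner, whereas Jun proteins pair with each other, with Fos proteins or with ATF and BATF proteins. Many of these genes are immediate early genes, whose transcription rises within minutes of a stimulus that activates MAP kinases and whose mRNAs are short-lived. In macrophages AP-1 takes part in the response to growth factors, adhesion and Toll-like receptor ligands, and Fos proteins are needed for the osteoclast branch of the lineage.

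Promoter sequence is shown for *Fosb* and *Fos*, a member that changed and its close relative that did not pass the test, and as a short stretch for *Atf3*, the member that rose. RefSeq (GRCm38.p6) gave start sites for 9 of the 10 members, with no entry for *Fosl1*, and 11 windows in all because *Maff* has several starts. The 250 bases before each start were searched on both strands for the cyclic AMP response element TGACGTCA, its core TGACG, the AP-1 element TGANTCA and the CArG box bound by SRF. TGACGTCA contains TGACG on both strands. Capitals mark the matches to the core, written as CGTCA where it lies on the other strand. The *Fosb* sequence is chr7:19310052-19310295 (minus strand), that of *Fos* is chr12:85473640-85473889 (plus strand) and that of *Atf3* is chr1:191183334-191183363 (minus strand).
Fosb: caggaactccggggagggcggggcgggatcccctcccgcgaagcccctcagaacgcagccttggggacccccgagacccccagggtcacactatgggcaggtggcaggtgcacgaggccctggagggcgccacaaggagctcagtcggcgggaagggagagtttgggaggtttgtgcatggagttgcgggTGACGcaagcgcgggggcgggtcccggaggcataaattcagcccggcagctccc
Fos: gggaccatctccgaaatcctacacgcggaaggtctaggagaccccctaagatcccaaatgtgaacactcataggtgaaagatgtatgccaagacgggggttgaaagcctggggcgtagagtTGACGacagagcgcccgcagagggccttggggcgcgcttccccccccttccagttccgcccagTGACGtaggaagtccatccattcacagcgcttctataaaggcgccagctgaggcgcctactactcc
Atf3: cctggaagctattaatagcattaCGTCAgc
The 6 bases between the printed *Fosb* sequence and its RefSeq start are not shown, since GENCODE counts them as exon. In the printed *Atf3* stretch GENCODE also counts the last 7 bases as exon, and these contain its match. Counted back from −1, the base before the RefSeq start, the core lay at −60 to −56 in *Fosb*, at −66 to −62 and −129 to −125 in *Fos* and at −7 to −3 in *Atf3*. It was present in 6 of the 11 member windows, belonging to 5 of the 9 members, and in 17.8% of all 32851 RefSeq windows. All counts use the full 250 bases of a window, also where GENCODE places them in an exon of the gene. Such bases numbered 250 in *Fosl2*, 163 in *Batf3*, 95 in a *Maff* window, 7 in *Atf3* and 6 in *Fosb*. The RefSeq start of *Jund*, at 70697739, lies upstream of its GENCODE gene, which begins at 70698949. That of *Atf3*, at 191183333, lies inside its GENCODE gene, which on the minus strand begins at 191218039. Sequence before these GENCODE starts of *Jund* and *Atf3* was not searched. The full TGACGTCA was found in 1 member window, of *Maff*, and in 1.55% of all windows. TGANTCA and the CArG box were found in 0 of the 11, against 6.75% and 1.47% of all windows. Variants of these patterns were not counted, among them TGACATCA in the *Jun* window, which differs from TGACGTCA in 1 base. A match or its absence describes letters in a window of this length, not binding, and sequence further upstream was not searched.

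Values are normalized read counts as the authors deposited them. Their totals lay between 20476668 and 20636260 in the 6 libraries, and the value of a single read puts the depth at about 18000000 to 24800000 reads. *Lcn10* was listed at 0 in all 6 libraries, so it cannot check the genotype labels. WT replicate 1 stood apart on the first principal component, at 26.3 against −15.3 to −9.92 in Lcn10-KO and 4.63 and 9.29 in the other WT libraries. All 9 macrophage markers looked at were present, with a summed value of 310947 to 322428 in Lcn10-KO and 291773 to 301313 in WT. Of these, *Mertk* and *Adgre1* were higher and *Csf1r* and *Cd14* lower in Lcn10-KO. *Lyz2* made up most of the sum in each library and did not pass the test, at 0.10 log2 units. The largest difference among the 9 was that of *Mrc1*, 0.59 log2 units on the higher side, which did not pass (limma adjusted p = 0.0838). Stromal markers such as *Col1a1* were present as well, with a summed value over 7 genes of 3786 to 4270 in Lcn10-KO and 2882 to 4472 in WT. The 6 endothelial markers summed to 1465 to 1982 in Lcn10-KO and 1376 to 1558 in WT, and of these *Vwf* passed the test, with 1158 to 1283 in Lcn10-KO and 1058 to 1118 in WT (0.19 log2 units higher, limma adjusted p = 0.0424). *Vwf* made up most of the sum in each library. *Pecam1*, *Cdh5* and *Emcn* were highest in Lcn10-KO replicate 2, at 160.9, 164.9 and 121.0, and did not pass. *Kdr* was on the lower side, at −0.17 log2 units, and did not pass either. The 5 erythroid markers summed to 16.0 to 18.7 in Lcn10-KO and 5.65 to 8.03 in WT, and the 5 B cell markers to 33.6 to 40.1 and 17.9 to 32.7. The part of these markers in the results on the AP-1 genes was not tested. In such bulk samples fewer cells of a type and less RNA per cell cannot be told apart.

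The members covered a wide range of levels, which are compared here per kb of annotated exon (GENCODE M21, GRCm38). *Atf3*, a stress-induced member that often represses transcription, was the most abundant, with 2292 ± 96.2 normalized counts per kb in Lcn10-KO and 1929 ± 146 in WT (SD, n = 3 each). *Jun*, *Jund* and *Fos* followed at 967 ± 23.7, 941 ± 29.7 and 890.1 ± 111 per kb in Lcn10-KO, and their ranges over the 3 libraries overlapped. In WT the same genes had 1015 ± 60.7, 849 ± 36.6 and 1049 ± 81.3 per kb, so *Fos* ranked below *Jund* in Lcn10-KO and above it in WT, where *Fos* and *Jun* overlapped and *Jund* lay below both. *Junb* lay at 639 ± 46.1 per kb in Lcn10-KO and 670.2 ± 18.7 in WT, and *Fosl2* at 109 ± 3.35 and 139.7 ± 9.37. The remaining members were below 60 per kb in each library. *Maff*, *Fosl1* and *Batf3* had 32.9 ± 0.658, 26.1 ± 3.04 and 23.8 ± 3.28 per kb in Lcn10-KO, of which *Fosl1* and *Batf3* overlapped, while in WT they had 39.3 ± 4.16, 44.8 ± 12.8 and 20.03 ± 3.05 per kb, of which *Maff* and *Fosl1* overlapped. *Fosb* was the lowest, at 2.90 ± 0.569 per kb in Lcn10-KO and 6.82 ± 1.601 in WT. Which transcripts the cells used is not known from these values, so the order of genes close to each other is uncertain.

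**Figure D1:**
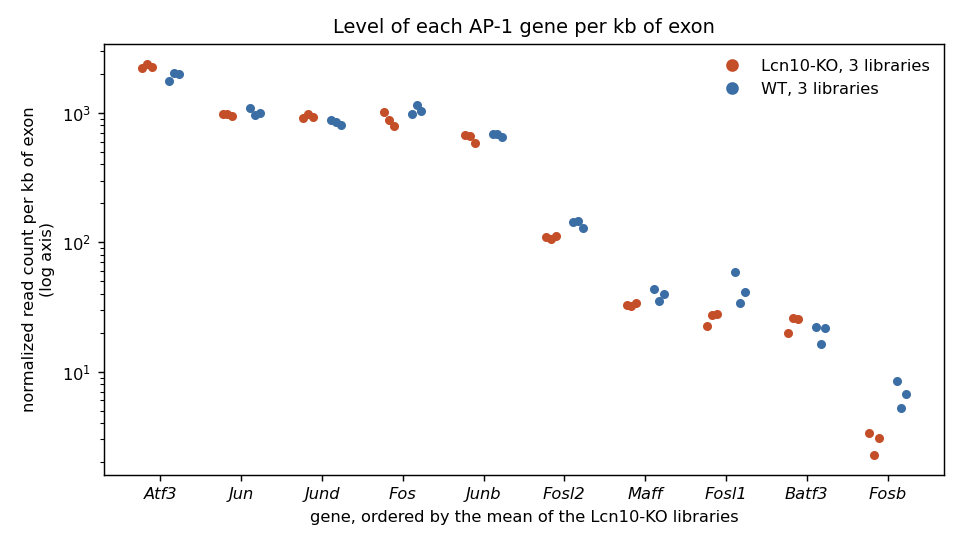
Normalized read count per kb of annotated exon (log axis) for the 10 AP-1 genes, with a point for each of the 3 Lcn10-KO and 3 WT libraries. *Atf3* lay above all other members in both genotypes and *Fosb* lay lowest, with its Lcn10-KO points below its WT points.

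The question put to each member was whether it differed between Lcn10-KO and WT macrophages. Differences are log2 fold changes of Lcn10-KO over WT on the log2(value + 1) scale, which understates the change of low genes. They come from limma fitted on the 12091 genes that reached 10 normalized counts in 3 or more libraries, with Benjamini-Hochberg adjusted p under 0.05 as the threshold. All 10 members passed that filter, each with at least 10 in all 6 libraries. Of the 10, 3 fell, all of the Fos subfamily, 1 rose and 6 did not pass the test. Over all genes tested, 9.84% passed, with 5.14% lower and 4.70% higher in Lcn10-KO. The members were chosen with earlier results of these data known, so setting them beside this share is a description and not a test. The median log2 fold change was −0.16 over the members and −0.0011 over all genes tested, with 7 of the 10 members on the lower side. The calls of the members, like those of most genes, rest on limma's mean-variance trend. Without it 14 of 12091 genes and 0 members passed, with 6 members at an unadjusted p under 0.05 and a smallest adjusted p of 0.0962 (*Fosl2*).

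**Figure D2:**
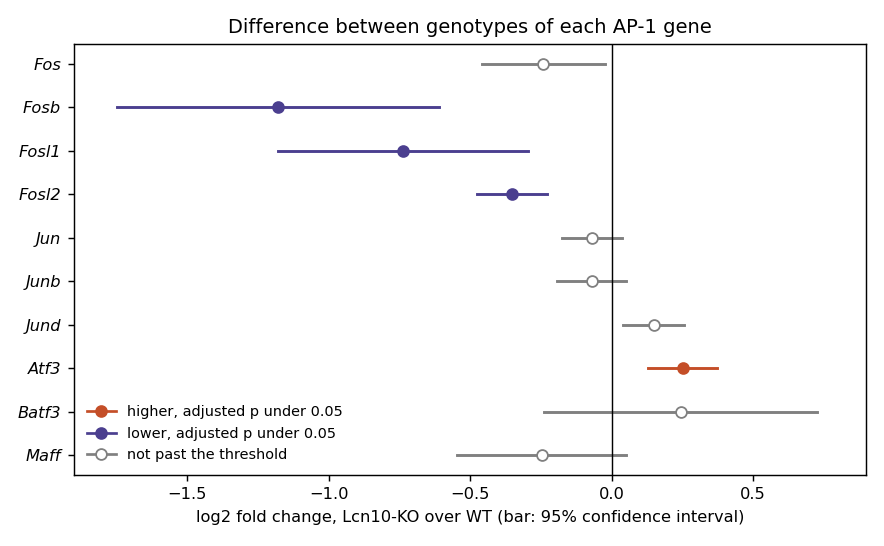
Log2 fold change of Lcn10-KO over WT for each AP-1 gene (points) with its 95% confidence interval (bars), from limma. The intervals of *Fosb*, *Fosl1* and *Fosl2* lie below 0 and that of *Atf3* above it, all with an adjusted p under 0.05, while *Jun* and *Junb* lie close to 0.

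Within the Fos subfamily, *Fosb* had the largest difference of any member. *Fosb* (ENSMUSG00000003545.3, chr7:19302696-19310051, minus strand) codes for FosB, which lasts longer in cells in its truncated form than Fos does. It had 21.0, 14.2 and 19.2 normalized counts in Lcn10-KO replicates 1 to 3, against 52.6, 32.7 and 42.3 in WT replicates 1 to 3. Every Lcn10-KO library was below every WT library. The mean was 18.1 ± 3.55 in Lcn10-KO and 42.5 ± 9.99 in WT (SD, n = 3 each), a log2 fold change of −1.18 ± 0.26 (SE, limma adjusted p = 0.0180). At this low level the 95% confidence interval ran from −1.75 to −0.61. Leaving out Lcn10-KO replicate 2, Lcn10-KO replicate 3 or WT replicate 3 ended the call (adjusted p = 0.0864, 0.0693 and 0.0505), with log2 fold changes of −1.02, −1.23 and −1.17.

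*Fosl1* (ENSMUSG00000024912.6, chr19:5447547-5455946, plus strand) codes for Fra-1, a Fos protein without the strong transactivation domain of Fos. It had 45.9, 55.9 and 57.3 normalized counts in Lcn10-KO, against 119.7, 68.7 and 84.6 in WT. The groups did not overlap, and the WT libraries were spread widely, with replicate 1 far above replicate 2. *Fosl1* averaged 53.0 ± 6.18 in Lcn10-KO and 91.0 ± 26.1 in WT (SD, n = 3 each) and fell by 0.74 ± 0.20 on the log2 scale (SE, limma adjusted p = 0.0398). Without WT replicate 1 the log2 fold change was −0.52 ± 0.19 and did not pass (adjusted p = 0.0938). The call was also lost when Lcn10-KO replicate 1, 2 or 3 or WT replicate 3 was left out (adjusted p = 0.131, 0.119, 0.106 and 0.0786). An exon of *Fosl1* overlaps *Ccdc85b* on the opposite strand, and the strand setting of the counting is not given, so reads there cannot be told apart. *Ccdc85b* had 288 to 328 normalized counts in Lcn10-KO and 265 to 291 in WT and missed the threshold, at 0.15 ± 0.08 log2 units (adjusted p = 0.289).

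*Fosl2* had the smallest p of the members. *Fosl2* (ENSMUSG00000029135.10, chr5:32135801-32157842, plus strand) codes for Fra-2, the other Fos protein without a strong transactivation domain. Its values were 1072, 1021 and 1081 normalized counts in Lcn10-KO, against 1397, 1412 and 1248 in WT. All Lcn10-KO libraries lay below the lowest WT library, and they lay close together. The mean was 1058 ± 32.4 in Lcn10-KO and 1353 ± 90.7 in WT (SD, n = 3 each), a log2 fold change of −0.35 ± 0.06 (SE, limma adjusted p = 0.00459). It was the only member that passed the threshold in each of the 6 fits with 1 library left out, with log2 fold changes of −0.41 to −0.32 over all alternatives.

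*Fos* (ENSMUSG00000021250.13, chr12:85473890-85477273, plus strand), the founding member of the subfamily and the strongest activator in it, had 2366, 2072 and 1844 normalized counts in Lcn10-KO, against 2309, 2679 and 2410 in WT. The groups overlapped, since Lcn10-KO replicate 1 lay above WT replicate 1. The log2 fold change of −0.24 ± 0.09 did not pass (SE, limma adjusted p = 0.152), and its 95% confidence interval was −0.46 to −0.02. Without Lcn10-KO replicate 1 it was −0.33 ± 0.07 and passed (adjusted p = 0.0344), while without Lcn10-KO replicate 3 it was −0.15 ± 0.08 (adjusted p = 0.301) and without WT replicate 2 −0.18 ± 0.10 (adjusted p = 0.273).

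The 4 Fos genes added up to 3504, 3162 and 3001 normalized counts in Lcn10-KO, against 3879, 4193 and 3785 in WT. The groups of sums did not overlap, and *Fos* itself made up most of each. The sum of the 3 Jun genes was 6206, 6265 and 5895 in Lcn10-KO, against 6496, 6076 and 6015 in WT, with overlap. The ratio of the Fos sum to the Jun sum was 0.526 ± 0.0334 in Lcn10-KO and 0.639 ± 0.0472 in WT (SD, n = 3 each), and each Lcn10-KO library was below each WT library. These sums are a description of counts per gene, not of protein, and are not corrected for exon length. *Fosl2*, with 9.68 kb of annotated exon against 2.352 kb in *Fos*, therefore weighs more in them than in levels per kb. The ratio was not taken per kb, where the gap between the genotypes may differ. The sum of all 10 members, 14404 ± 451 in Lcn10-KO and 14436.5 ± 287 in WT, overlapped between the genotypes.

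The Jun subfamily supplies the partner that every Fos protein needs. *Jun* (chr4:95049034-95052222, minus strand) had 3125, 3127 and 2995 normalized counts in Lcn10-KO, against 3456, 3086 and 3171 in WT. The groups overlapped and the log2 fold change of −0.07 ± 0.05 did not pass (SE, limma adjusted p = 0.407, 95% confidence interval −0.18 to 0.04). *Junb* (chr8:84974484-84978718, minus strand), a weaker activator than Jun that can restrain it, had 1549, 1512 and 1350 in Lcn10-KO, against 1567, 1567 and 1492 in WT. It too overlapped, with a difference of −0.07 ± 0.06 log2 units (SE, adjusted p = 0.470, interval −0.19 to 0.05). These intervals leave room for a decrease, so the p-values do not show that *Jun* and *Junb* were equal in the genotypes.

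*Jund* (chr8:70698949-70700616, plus strand), a constitutively expressed Jun protein that slows proliferation in fibroblasts, was on the other side. It had 1532, 1625 and 1550 normalized counts in Lcn10-KO, against 1474, 1423 and 1352 in WT. The groups did not overlap, but the log2 fold change of 0.15 ± 0.05 did not pass (SE, limma adjusted p = 0.0779). Without WT replicate 1 it was 0.18 ± 0.05 and passed (adjusted p = 0.0300), while it was 0.12 ± 0.05 when WT replicate 3 and 0.12 ± 0.06 when Lcn10-KO replicate 2 was left out (adjusted p = 0.212 and 0.296). The antisense gene *Gm11175* overlaps *Jund*, *Junos* overlaps *Jun* and the protein-coding *Prdx2* overlaps *Junb*, each on the opposite strand. *Prdx2* differed by 0.04 ± 0.04 log2 units (adjusted p = 0.638), and the antisense genes were not listed in the expression table under these symbols.

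*Atf3* (ENSMUSG00000026628.13, chr1:191170296-191218039, minus strand), which is induced by stress and by Toll-like receptor signals and limits inflammatory gene expression in macrophages, was the member that rose. It had 4775, 5170 and 4864 normalized counts in Lcn10-KO, against 3795, 4379 and 4290 in WT. Each Lcn10-KO library was above each WT library, and WT replicate 1 was the lowest. The mean was 4936 ± 207 in Lcn10-KO and 4155 ± 315 in WT (SD, n = 3 each), a log2 fold change of 0.25 ± 0.06 (SE, limma adjusted p = 0.0186). The call was lost without Lcn10-KO replicate 2 (log2 fold change 0.22, adjusted p = 0.107) and without Lcn10-KO replicate 3 (0.26, adjusted p = 0.0775). As a share of the summed values of the 10 members, *Atf3* took 34.3% ± 1.37 in Lcn10-KO and 28.8% ± 1.98 in WT (SD, n = 3 each). This share is of counts that are not corrected for exon length.

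*Batf3* (chr1:191097847-191108945, plus strand), a partner of Jun proteins without a transactivation domain, is needed for the development of cross-presenting dendritic cells. Its values were 32.0, 41.4 and 40.6 normalized counts in Lcn10-KO, against 35.1, 26.4 and 34.5 in WT. The groups overlapped and the log2 fold change of 0.24 ± 0.22 did not pass (SE, limma adjusted p = 0.538). Its interval, −0.24 to 0.73, was the second widest among the members. Of the 9 dendritic cell markers, *Wdfy4* had 3960 to 4241 normalized counts in Lcn10-KO and 4126 to 4489 in WT and did not pass the test. The others stayed at or below 10.3 in each library, among them *Xcr1* and *Flt3* at or below 1.14.

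*Maff* (chr15:79346621-79359076, plus strand) codes for a small Maf protein, which lacks a transactivation domain and pairs with CNC factors such as Nrf2 and Bach1 as well as with Fos proteins. It had 84.7, 84.2 and 87.4 normalized counts in Lcn10-KO, against 112, 90.6 and 103 in WT. The Lcn10-KO libraries lay close together and all below WT, yet the log2 fold change of −0.25 ± 0.14 did not pass (SE, limma adjusted p = 0.283). The groups did not overlap in 6 of the 10 members, *Fosb*, *Fosl1*, *Fosl2*, *Maff*, *Jund* and *Atf3*, against 32.4% of all genes tested. Of these, 4 were lower and 2 higher in Lcn10-KO, against 16.9% and 15.5% of all genes.

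**Figure D3:**
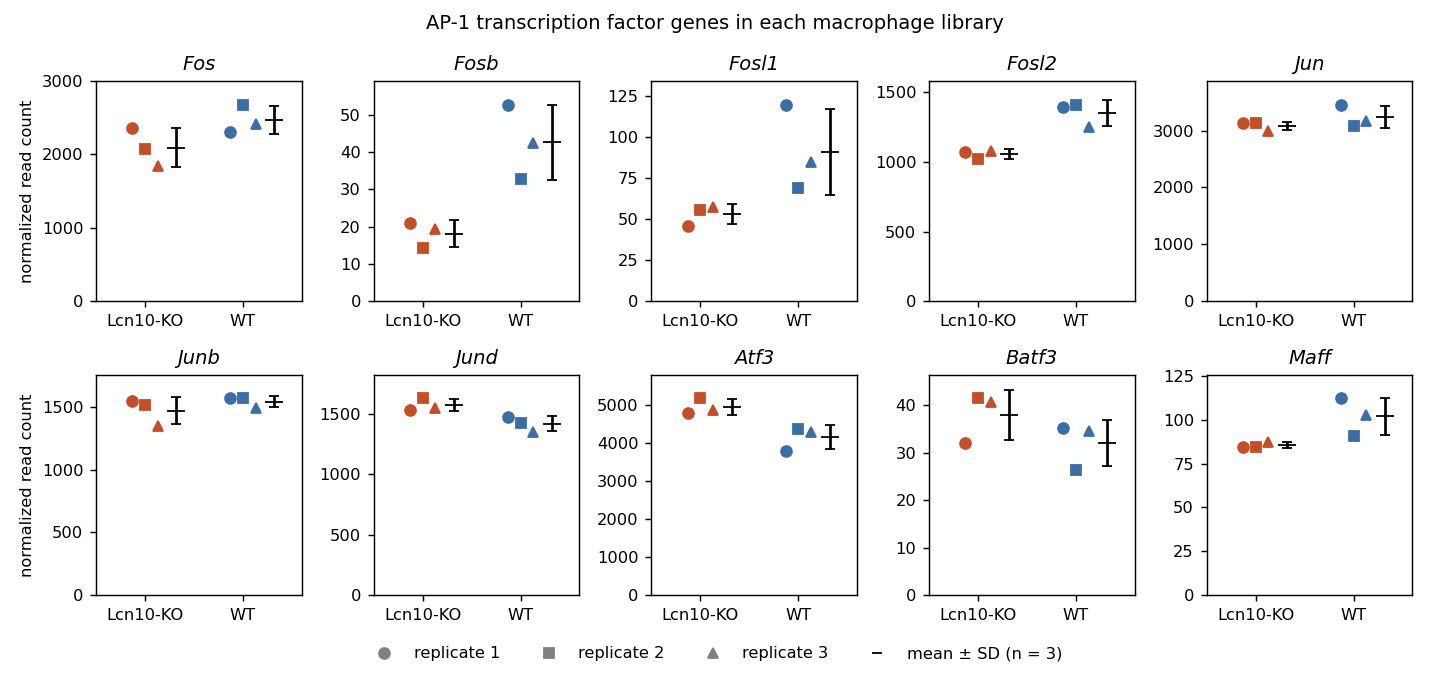
Normalized read count of each AP-1 gene in the 3 Lcn10-KO and 3 WT libraries, with the replicate shown by the symbol and the mean ± SD (n = 3) in black; each axis starts at 0. The genotypes are apart in *Fosb*, *Fosl1*, *Fosl2*, *Maff*, *Jund* and *Atf3*, and overlap in *Fos*, *Jun*, *Junb* and *Batf3*.

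The libraries did not take part equally in these differences. WT replicate 1 was the highest of the 6 libraries in 5 members, *Fosb*, *Fosl1*, *Jun*, *Junb* and *Maff*, and the lowest in *Atf3*. Around each gene's mean over the 6 libraries, it lay at 0.92 log2 units for *Fosb* and 0.80 for *Fosl1*, where WT replicate 2 lay at 0.24 and 0.01. In *Junb* its lead over WT replicate 2 was far smaller than the spread between replicates. Lcn10-KO replicate 2 was the lowest library in 3 members, *Fosb*, *Fosl2* and *Maff*, and the highest in 3, *Jund*, *Atf3* and *Batf3*. *Fosb* had the widest range over libraries, 1.82 log2 units, and *Jun* the narrowest, 0.21.

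**Figure D4:**
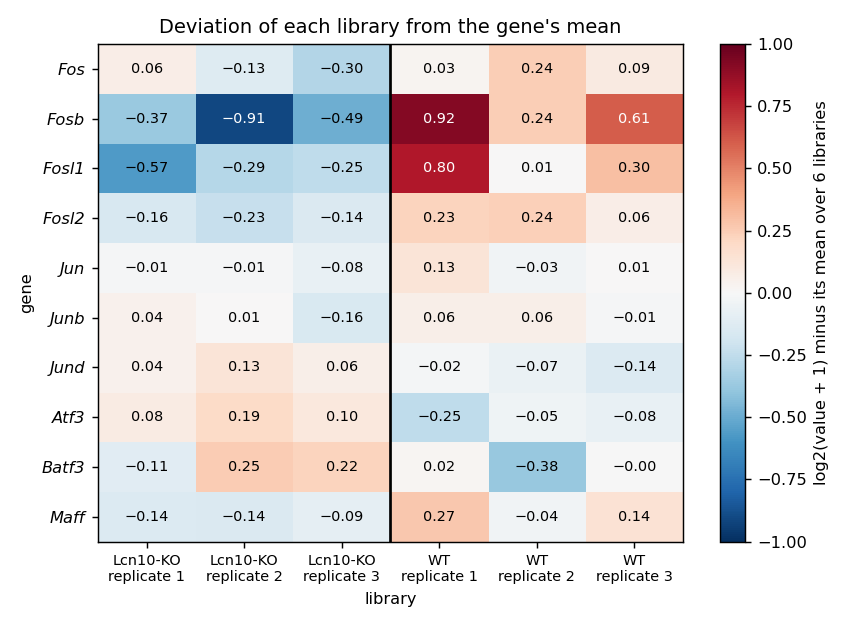
Deviation of log2(value + 1) from the gene's mean over the 6 libraries, for each AP-1 gene (rows) and library (columns, Lcn10-KO left of WT); red is above and blue below the mean. *Fosb*, *Fosl1* and *Fosl2* are below their mean in all Lcn10-KO libraries and above it in all WT libraries, and *Atf3* shows the opposite signs.

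Genes around AP-1 were looked at in lists, each given by its counts beside the 9.84% of all genes tested that passed. The lists too were chosen with earlier results of these data known, and no test was run over a list. Among 30 tested immediate early genes outside the family, 6 fell, 2 rose and 22 did not pass, which is 26.7%, with a median log2 fold change of −0.15. *Klf4*, a zinc finger factor, had 259 ± 10.4 normalized counts in Lcn10-KO and 344 ± 19.2 in WT (SD, n = 3 each) and fell by 0.41 ± 0.08 on the log2 scale (SE, limma adjusted p = 0.0104). *Dusp1*, the phosphatase that switches off p38 and JNK, and *Nr4a1*, an orphan nuclear receptor, fell by 0.32 ± 0.06 and 0.57 ± 0.12 (adjusted p = 0.0117 and 0.0155). *Rhob*, a small GTPase, and *Gadd45b*, a stress sensor, rose by 0.26 ± 0.05 and 0.30 ± 0.08 (adjusted p = 0.00996 and 0.0345). *Egr1*, which serum response factor drives together with *Fos*, differed by 0.04 ± 0.12 log2 units and did not pass (adjusted p = 0.887). In place of 8 genes, 5, 1 and 0 passed without Lcn10-KO replicate 1, 2 or 3, and 8, 11 and 8 without WT replicate 1, 2 or 3.

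The kinases upstream of AP-1 differed in a few members. Of 32 tested genes of the MAP kinase cascades, 4 fell, 0 rose and 28 did not pass (12.5%), with a median log2 fold change of −0.03. *Map2k3*, a kinase that activates p38, had 2160 ± 49.7 normalized counts in Lcn10-KO and 2575 ± 100.3 in WT (SD, n = 3 each), a log2 fold change of −0.25 ± 0.05 (SE, limma adjusted p = 0.00665). *Map3k5*, which codes for the stress kinase ASK1, and *Rps6ka5*, which codes for the chromatin kinase MSK1, fell by 0.36 ± 0.06 and 0.25 ± 0.06 (adjusted p = 0.00681 and 0.0292). The remaining one, named after its value was seen, was *Map2k1*, which codes for the ERK-activating kinase MEK1, at −0.15 ± 0.04 (adjusted p = 0.0349). The kinases that phosphorylate Jun, *Mapk8* and *Mapk9*, had log2 fold changes of −0.05 ± 0.07 and 0.05 ± 0.05. Without Lcn10-KO replicate 1, 2 or 3 or WT replicate 3, 2, 2, 1 and 2 of these kinases passed.

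In the list of serum response factor, its ternary complex partners, CREB-regulated coactivators and histone acetyltransferases, 1 of 12 tested genes passed. It was *Elk3*, a ternary complex factor, which fell by 0.24 ± 0.05 on the log2 scale (SE, limma adjusted p = 0.0155) and lost its call without any 1 of the Lcn10-KO libraries (adjusted p of up to 0.0853). Of 20 genes that act in turnover of AP-1 mRNA and protein, 2 fell, 2 rose and 16 did not pass. *Trib1*, a scaffold of the COP1 ubiquitin ligase, fell by 0.51 ± 0.10, and *Elavl1*, which codes for the mRNA-stabilizing protein HuR, by 0.21 ± 0.05 (adjusted p = 0.0139 and 0.0197). *Ndfip1*, an adaptor of the Itch ubiquitin ligase, and *Fbxw7*, the substrate receptor of a ligase for Jun, rose by 0.22 ± 0.05 and 0.22 ± 0.06 (adjusted p = 0.0165 and 0.0482). Without Lcn10-KO replicate 2 or 3, 0 genes of this list passed.

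Other bZIP factors share the DNA-binding fold and some partners of AP-1. Of 31 tested, 2 fell, 2 rose and 27 did not pass (12.9%), with a median log2 fold change of 0.04. *Dbp*, a clock-controlled PAR factor, had 196 ± 18.6 normalized counts in Lcn10-KO and 129 ± 6.30 in WT (SD, n = 3 each) and rose by 0.60 ± 0.11 on the log2 scale (SE, limma adjusted p = 0.00785). *Bach1*, a repressor that pairs with small Maf proteins, rose by 0.17 ± 0.05, while *Atf6*, a sensor of endoplasmic reticulum stress, and *Creb5*, a partner of Jun, fell by 0.17 ± 0.04 and 0.21 ± 0.06 (adjusted p = 0.0488, 0.0252 and 0.0462). *Jdp2*, the Jun dimerization protein, and *Batf*, the close relative of *Batf3*, had log2 fold changes of −0.15 ± 0.11 and 0.47 ± 0.20 that did not pass (adjusted p = 0.433 and 0.152). Without Lcn10-KO replicate 1, 2 or 3 or WT replicate 3, 1 gene of this list passed in each case.

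Genes listed here as AP-1 targets, 28 of them tested, had 5 that fell, 0 that rose and 23 that did not pass (17.9%). Whether each has AP-1 elements in its regulatory regions was not looked at. The median log2 fold change of the list was −0.0036, with 15 genes on the lower and 13 on the higher side, so the list as a whole was centred near all genes tested. *Spp1*, which codes for the matrix protein osteopontin, had 57406, 49554 and 54004 normalized counts in Lcn10-KO, against 79412, 67524 and 78186 in WT. The groups did not overlap, and *Spp1* fell by 0.48 ± 0.07 on the log2 scale (SE, limma adjusted p = 0.00610). *Ccnd1*, cyclin D1, had 5865, 5768 and 5303 in Lcn10-KO, against 10605, 7734 and 8271 in WT, and fell by 0.64 ± 0.12 (adjusted p = 0.0340). *Cd44*, the hyaluronan receptor, fell by 0.16 ± 0.04 (adjusted p = 0.0335). Named after their values were seen, *Plau*, the urokinase-type plasminogen activator, and *Msr1*, scavenger receptor A, fell by 0.62 ± 0.12 and 0.40 ± 0.09 (adjusted p = 0.0348 and 0.0401). WT replicate 1 was the highest library in *Spp1*, *Ccnd1*, *Cd44*, *Plau* and *Msr1*. Without it 7 genes of the list passed, against 6 without WT replicate 2, 3 without WT replicate 3 and 1 each without Lcn10-KO replicate 1, 2 or 3.

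Heat shock genes, which handling of cells can induce together with AP-1, had 2 of 12 tested genes lower and 0 higher. *Hsp90aa1* and *Hsph1*, both cytosolic chaperones, fell by 0.21 ± 0.05 and 0.28 ± 0.07 on the log2 scale (SE, limma adjusted p = 0.0191 and 0.0330). The median of the list was −0.08, with 11 of 12 genes on the lower side. Its part in the differences of the AP-1 genes was not tested. Without any 1 of the Lcn10-KO libraries 0 heat shock genes passed, while 4 passed without WT replicate 2 and 1 without WT replicate 3.

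**Figure D5:**
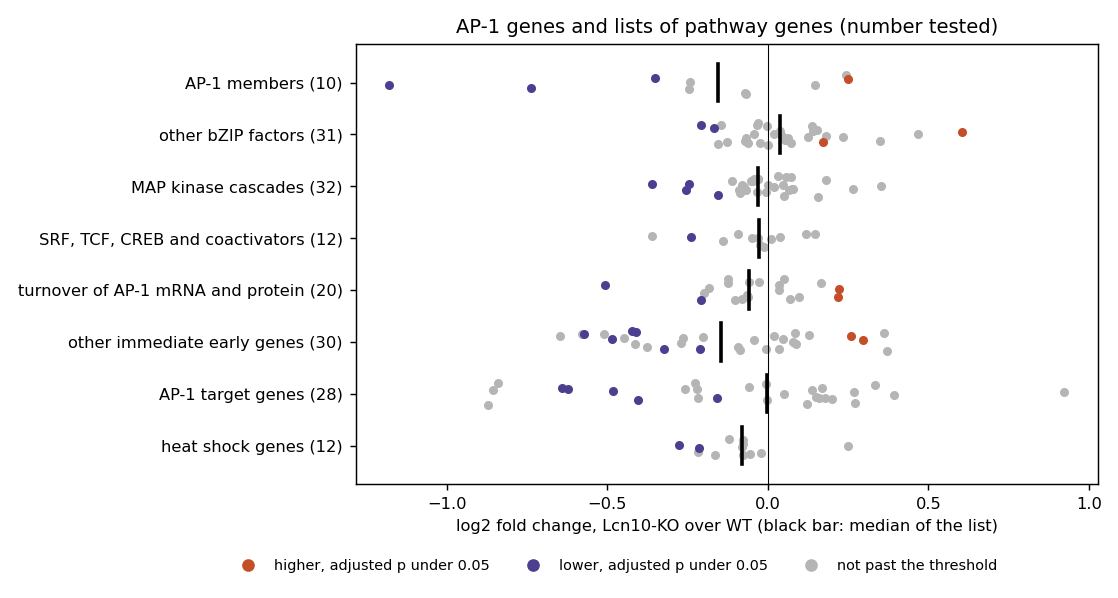
Log2 fold change of Lcn10-KO over WT for each tested gene of the AP-1 family and of 7 lists (points, with the number tested), with the median of each list as a black bar. The AP-1 median of −0.16 and the immediate early median of −0.15 lie left of 0, and the medians of the other lists lie between −0.08 and 0.04.

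For each of the 4 members that passed, the genes with the most similar pattern were sought among 10179 tested genes with a mean of at least 50. Similarity was the root mean square difference over the 6 libraries between log2 values centred on each gene's mean. For *Fosb* they were *Dmpk*, a serine/threonine kinase, *Id3*, which blocks E proteins, and *Wwc2*, at 0.16, 0.17 and 0.21 log2 units. *Fosl1* was nearest to *Pdlim7*, *Chac1* and *Clec5a* (0.12, 0.14 and 0.14), of which *Pdlim7* passed the test (limma adjusted p = 0.0434) and the other two did not (0.0749 and 0.0824). *Chac1*, a glutathione-degrading enzyme, had 51.2, 51.6 and 53.1 normalized counts in Lcn10-KO, against 99.5, 64.2 and 71.5 in WT, the same order of WT libraries as in *Fosl1*. *Fosl2* was nearest to *Macf1*, a cytoskeletal linker, *Fam129a* and *Prkdc*, the DNA-dependent protein kinase (0.035, 0.038 and 0.038). *Atf3* was nearest to *Hebp1*, *Cd302*, a C-type lectin receptor, and *Chpt1* (0.0096, 0.019 and 0.021). *Hebp1* did not pass the test itself (log2 fold change 0.24 ± 0.08, adjusted p = 0.0831). Small distances are easy to reach for genes of small range such as *Fosl2* and *Atf3*, so they describe likeness in these 6 libraries and nothing more.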

How the data were processed

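The deposited table gives, for each gene and each of 6 libraries, a signal made by the authors by scaling read counts, here called normalized read counts. The submitters' processing notes name bcl2fastq, Salmon 0.11.2, STAR 2.6.1a and DESeq2 with build mm10, with no role or order. Annotation and strand setting are unknown here. Of the low values, 84.8% to 90.1% per library were whole multiples of 1 read (tolerance 0.1), so reads could not be recovered and no count test was run.

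Genes that reached 10 in 3 or more libraries were tested as log2(value + 1) in limma 3.58.1 (R 4.3.3) by genotype alone, with a mean-variance trend, robust estimation and Benjamini-Hochberg adjustment over all 12091 genes. The procedure was tested on simulated data in which all genes had the same dispersion. Such data cannot show how well the mean-variance trend, on which the calls rest, describes these libraries. The members and lists were chosen with earlier results of these data known. Named were all members, up to 3 genes per list and direction by p, and the 3 genes nearest in pattern to each member that passed; others were chosen after their values were seen. Alternatives were other scalings, variance models, filters and pseudocounts, a replicate block and each library left out in turn. Python 3.11.15 with matplotlib 3.10.9 made the figures.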

Additional observations from a re-analysis of the deposited data

How the results depend on the processing

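All 10 members kept the direction of their difference under every alternative in which they were tested, and so did the 28 list genes called in the report. Quantile normalization, median-ratio rescaling, limma without robust estimation, no filter on low values and pseudocounts of 0.5 and 10 each left the same 4 members past the threshold (*Fosb*, *Fosl1*, *Fosl2* and *Atf3*) and 1062 to 1223 genes in all. With a filter of 50 in 3 libraries *Fosb* and *Batf3* were not tested, and *Fosl1*, *Fosl2* and *Atf3* passed among 1279 genes. Without the mean-variance trend 0 of 10 members and 14 genes passed, and 0 of those 28 list genes. With 1 library left out, 1 to 4 members and 173 to 1652 genes passed. Without Lcn10-KO replicate 2 or 3 only *Fosl2* did among the members, with 206 and 173 genes in all, and without WT replicate 3 *Fosl2* and *Atf3* did, with 887 genes. Of the 28 list genes, 3 passed in all 6 such fits (*Dbp*, *Map3k5* and *Spp1*), and 12, 5 and 3 passed without Lcn10-KO replicate 1, 2 or 3. The cause was not tested. The deviations of libraries with the same replicate number correlated at 0.038, 0.073 and 0.014, none over 0.1, so the numbers were not taken as pairs, although 5 of 6 libraries correlated best with their own number. With a replicate block 1607 genes and the same 4 members passed, with 13 immediate early genes in place of 8, 11 AP-1 target genes in place of 5 and 4 heat shock genes in place of 2. For AP-1 target genes the count was 2 with no filter and 8 with a filter of 50 or without robust estimation, for other bZIP factors 2 in place of 4 with no filter or without robust estimation, and for the list of serum response factor 2 in place of 1 after quantile normalization. Depth limits *Fosb* and *Batf3* most, both at under 60 normalized counts in every library.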

Other observations

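Several genes of the AP-1 target list differed more between the genotype means than those that passed the test, but with a wide spread among the WT libraries. They were chosen after their values were seen. *Ccl2*, the monocyte-attracting chemokine, had 388, 341 and 334 normalized counts in Lcn10-KO, against 1052, 426 and 606 in WT (log2 fold change −0.87 ± 0.36, limma adjusted p = 0.228). *Ptgs2*, the inducible cyclooxygenase, had 62.7, 33.5 and 48.7 in Lcn10-KO, against 141, 64.5 and 68.5 in WT (−0.86 ± 0.33, adjusted p = 0.147). In both the groups did not overlap and WT replicate 1 was the highest library, as it was in *Fosb* and *Fosl1*.

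On the other side, *Mmp9*, a secreted gelatinase, had 153, 112 and 115 normalized counts in Lcn10-KO, against 58.9, 100.7 and 47.7 in WT (log2 fold change 0.92 ± 0.26, limma adjusted p = 0.0528). *Ctsk*, cathepsin K, had 243, 215 and 183 in Lcn10-KO, against 156, 154 and 176 in WT (0.39 ± 0.12, adjusted p = 0.0528). Neither passed the threshold, and the groups did not overlap in either. Both are also genes that osteoclasts express. The 6 osteoclast markers looked at, which include *Ctsk*, had a summed value of 536 to 657 in Lcn10-KO and 473 to 670.2 in WT, with *Calcr* at 0 in all 6 libraries. Beside *Ctsk*, *Acp5* was on the higher side (0.15 log2 units), while *Dcstamp* and *Ocstamp* were on the lower side (−0.13 and −0.30). None of these passed the test.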
